A study of Mus musculus with 8 samples.

Results

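Ubiquitin is passed to its substrates by activating (E1), conjugating (E2) and ligating (E3) enzymes, and HR6B, the product of Ube2b, is one of the E2 enzymes. The genes described here are the E2 enzymes other than Ube2a and Ube2b, with 4 genes for E1 enzymes, 33 genes in all, and the questions were which of them differed between spermatocytes and round spermatids and whether any was higher when HR6B was lost. They were chosen by symbol. For each gene the probe set annotated to it alone with the highest mean log2 value over the 8 arrays was used, which left 29 of the 33 genes, out of 18193 genes with a probe set of their own. Uba1, Uba2, Ube2m and Ube2l3 were not analysed here. RNA came from late spermatocytes and round spermatids of male mice, Hr6b+/+ (wild type) or Hr6b-/- (knockout), aged 4 to 5 weeks and on an FVB background, with 2 arrays for each of the 4 groups. The mutation is carried by every cell of the animal, and the wild type and knockout males came from separate crosses of the same backcross generation. Cells were enriched from testis by unit gravity sedimentation followed by Percoll gradients. The number of mice behind an array was not given, and the p-values speak only of variation among these arrays, which may be technical.

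An E1 enzyme activates ubiquitin with ATP and hands it to an E2, and the E2, together with an E3 ligase, decides which protein is marked and what kind of chain is built. Some E2 enzymes start chains, others extend them, and several carry a related protein such as NEDD8 or ISG15 instead of ubiquitin. In the testis, ubiquitylation acts on the silenced XY body of meiotic prophase and in the replacement of histones and the loss of organelles in haploid cells.

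Ube2b checked the labels. Its signal, the value on the linear scale, was 2855 and 3349 on the wild type spermatocyte arrays and 833 and 824 on the knockout ones, and 4600 and 4612 against 951 and 1061 in spermatids. The knockout arrays were lower than the wild type arrays in both cell types (log2 differences of -1.90 and -2.20, adjusted p = 0.000659 and 4.51e-05 from limma, which gave every adjusted p here). Ube2a, its X-linked paralog, had 65.6 and 50.8 in wild type and 75.8 and 73.4 in knockout spermatocytes, and 2218 and 2330 against 2403 and 2383 in spermatids. It was not called in the knockout (log2 differences of 0.37, 95% interval 0.07 to 0.67, adjusted p = 0.307, and 0.07, interval -0.23 to 0.38, adjusted p = 0.777). All 13 measured autosomal round spermatid markers were higher in wild type spermatids than in spermatocytes, and 8 of 13 spermatocyte markers were lower. The summed signal of 13 Sertoli cell markers, 8 of them under a mean of 100 in both spermatocyte groups, was 5575 to 6985 in wild type spermatocytes and 947 to 1071 in wild type spermatids. The median log2 value of expressed autosomal probe sets was 8.73 to 8.81 on the spermatocyte arrays, 8.38 to 8.40 in wild type and 8.14 to 8.22 in knockout spermatids, so that scaling bears on small differences between the cell types.

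Most of the 29 genes differed between the cell types. In wild type, 24 were called at an adjusted p under 0.05, 10 higher and 14 lower in spermatids, against 63.2% of all 18193 genes (33.7% higher and 29.4% lower) and 83.1% of the 9989 genes with a signal of 100 or more on at least 4 arrays, a level that 27 of the 29 reached. At least 2-fold differences were found for 16, 5 of them higher and 11 lower (34.5% of all genes, 16.0% higher and 18.5% lower, and 54.8% of the expressed ones). The median log2 difference was -0.07, compared with 0.15 over all genes and -0.17 over expressed genes. In the knockout, 25 were called, 10 higher and 15 lower (72.7% of all genes, 41.6% higher and 31.1% lower, and 85.7% of expressed genes). Their median was -0.50, compared with 0.21 over all genes and -0.35 over expressed genes. In both genotypes 22 were called in the same direction and 0 in opposite directions. The shares of all genes that did so were not counted, so this agreement is not particular to these genes. The split by direction depended on scaling: with arrays set to equal medians of expressed probe sets, which moved the median difference of all probe sets from 0.10 to 0.47 in wild type and from 0.14 to 0.75 in the knockout, it was 14 higher and 12 lower in wild type and 14 and 11 in the knockout. With cyclic loess it was 12 and 12, and 12 and 11. In these bulk samples, fewer cells of a type and less RNA per cell cannot be told apart.

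**Figure D1:**
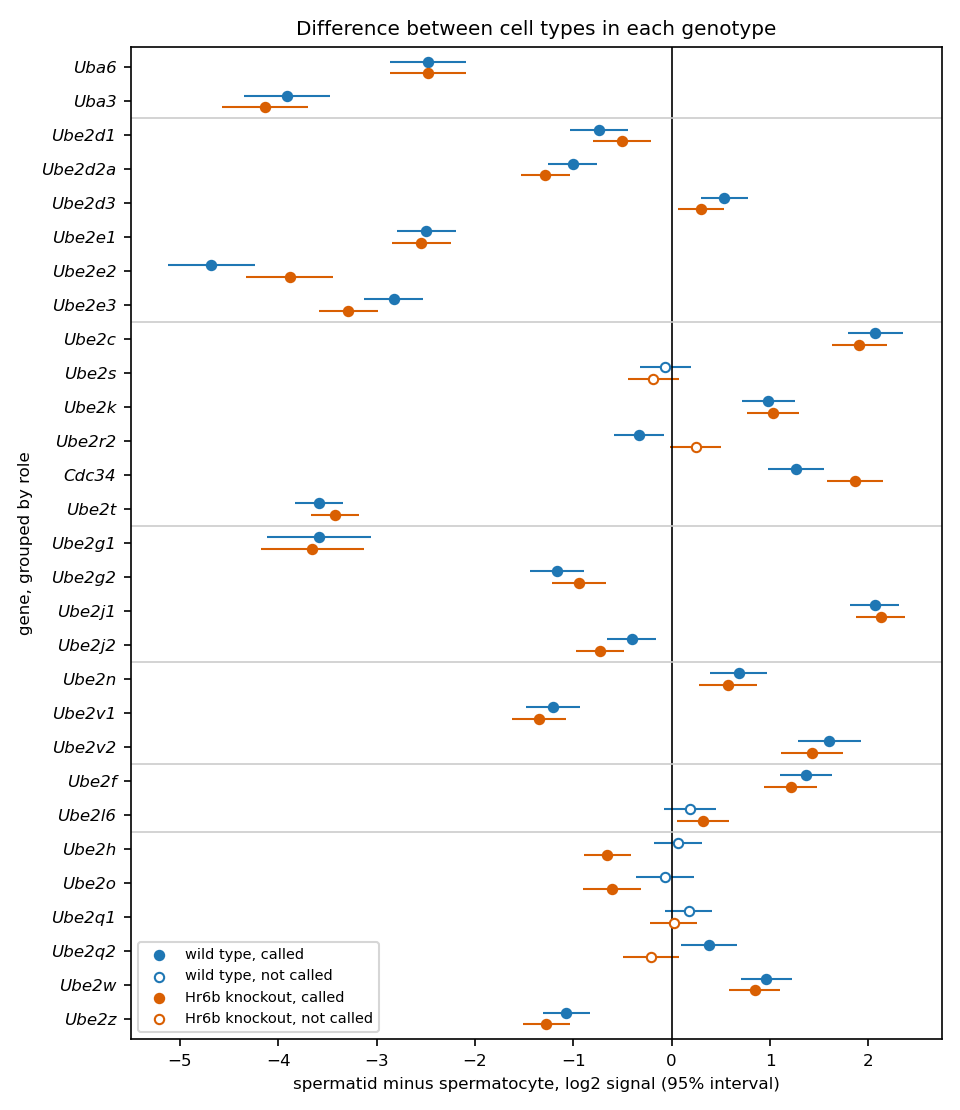
Spermatid minus spermatocyte difference in log2 signal (x axis) for the 29 genes (y axis, grouped by role, with lines between the groups), in wild type (blue) and Hr6b knockout (orange). Points are limma estimates from 2 arrays a group, bars are 95% intervals, and filled points were called. The differences run from -4.68 for Ube2e2 to 2.07 for Ube2c in wild type.

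Both measured E1 genes of those listed were lower in spermatids, and Uba1 and Uba2 were not analysed. Uba1y, the Y-linked E1 of the male germ line, is not one of the listed genes. It was higher in wild type spermatids than in wild type spermatocytes on both its probe sets (log2 differences of 3.20 and 2.78). Uba3 encodes the catalytic subunit of the NEDD8-activating enzyme. Its signal was 732 and 1141 in wild type spermatocytes and 65.9 and 56.1 in wild type spermatids, and 1042 and 978 against 62.4 and 53.0 in the knockout. The cell types were far apart in both genotypes, with log2 differences of -3.91 (standard error 0.19, adjusted p = 4.57e-08) and -4.13 (adjusted p = 2.94e-08). Uba6, a second E1 for ubiquitin, had 364 and 530 against 82.6 and 75.4 in wild type, and 442 and 460 against 74.4 and 88.6 in the knockout. No spermatid array reached the spermatocyte arrays, and the log2 difference was -2.47 in each genotype (standard error 0.17). Both were under 100 in spermatids. Ube2z, the E2 that receives ubiquitin from UBA6, was lower as well, at 622 ± 13.7 in wild type spermatocytes and 296 ± 6.97 in wild type spermatids (SD, n = 2), a log2 difference of -1.07.

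The UBE2D and UBE2E enzymes are broad E2 enzymes that serve many ligases, and 5 of the 6 were lower in spermatids in both genotypes. The 3 UBE2E genes fell most. Ube2e2 had a signal of 453 and 580 in wild type spermatocytes and 20.5 and 19.5 in wild type spermatids, and 347 and 378 against 19.6 and 30.7 in the knockout, with log2 differences of -4.68 (standard error 0.20) and -3.88. Ube2e3 had 2823 and 3407 against 458 and 418 in wild type (log2 difference -2.83, standard error 0.14), and 2783 and 2957 against 273 and 316 in the knockout (-3.29). Ube2e1, whose product has been studied as a partner of the ligases for histone H2B, had 1375 and 1650 against 264 and 271 in wild type (-2.49, standard error 0.13), and 1155 and 1366 against 207 and 223 in the knockout (-2.55). For none of the 3 did a spermatid array overlap with a spermatocyte array. Of the UBE2D genes, Ube2d2a was lower (4498 ± 301 in spermatocytes and 2239 ± 6.00 in spermatids of wild type), Ube2d3 was higher (11944 ± 96.4 and 17306 ± 622), and Ube2d1 was under 100 on all arrays, at 16.1 ± 1.58 and 9.63 ± 0.528. The difference of Ube2d1 in the knockout (-0.50) turned to 0.10 with equal expressed medians. With the mean over probe sets, Ube2d3 was called lower in wild type spermatids (-1.57). UBE2D sequences are very similar to each other, and cross-hybridization between them was not tested.

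The E2 enzymes of mitosis and of chain extension split. Ube2c, which starts chains for the anaphase-promoting complex, had 424 and 423 in wild type spermatocytes and 1608 and 1966 in wild type spermatids, and 461 and 432 against 1719 and 1633 in the knockout. It was higher in spermatids in both genotypes, by 2.07 (standard error 0.13, adjusted p = 2.04e-07) and 1.91 on the log2 scale. Ube2s, which extends the chains that UBE2C starts, showed no called difference, at 11784 ± 878 and 11264 ± 126 (log2 difference -0.06, 95% interval -0.32 to 0.20), and was called higher with equal expressed medians. Its probe set is of a type whose probes can match other transcripts. Ube2t, the E2 of the Fanconi anaemia pathway of DNA crosslink repair, went the other way. It had 5517 and 5355 in wild type spermatocytes and 473 and 433 in wild type spermatids, and 5027 and 5088 against 469 and 475 in the knockout, with log2 differences of -3.59 (standard error 0.11, adjusted p = 2.47e-09) and -3.42. Fancl, the ligase that works with UBE2T, had 934 and 1080 in wild type spermatocytes and 1007 and 967 in wild type spermatids and was not called. Ube2k, which builds chains that mark proteins for the proteasome, was higher in spermatids at 8066 ± 72.0 against 4081 ± 231 (log2 difference 0.98). With the mean over its probe sets the difference of Ube2k was 0.09 in wild type (adjusted p = 0.471) and 0.15 in the knockout (adjusted p = 0.207), and both calls were lost. The UBE2R enzymes Cdc34 and Ube2r2, which serve cullin-RING ligases, differed from each other: Cdc34 was higher in wild type spermatids (log2 difference 1.26) and Ube2r2 lower (-0.33, adjusted p = 0.0307). The difference of Ube2r2 was called in 7 of 16 alternative settings and turned to 0.11 at its highest.

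The promoters of Ube2c and Ube2t are shown because these genes lay at opposite ends of this group and both hold several copies of CCAAT, the box bound by NF-Y, which is common in promoters of cell cycle genes. The 250 bases before the RefSeq start (GRCm38.p6) are printed 5′ to 3′ on the strand of the gene, with CCAAT on either strand in capitals. Ube2c lies at chr2:164769679-164769928 on the plus strand and holds 6 matches, a pair of which overlap. Ube2t lies at chr1:134962315-134962564 on the plus strand and holds 3.
Ube2c: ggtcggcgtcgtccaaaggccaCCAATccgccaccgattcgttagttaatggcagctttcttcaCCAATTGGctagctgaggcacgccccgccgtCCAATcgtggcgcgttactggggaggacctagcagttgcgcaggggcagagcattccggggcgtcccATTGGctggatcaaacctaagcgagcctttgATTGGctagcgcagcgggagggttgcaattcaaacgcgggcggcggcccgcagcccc
Ube2t: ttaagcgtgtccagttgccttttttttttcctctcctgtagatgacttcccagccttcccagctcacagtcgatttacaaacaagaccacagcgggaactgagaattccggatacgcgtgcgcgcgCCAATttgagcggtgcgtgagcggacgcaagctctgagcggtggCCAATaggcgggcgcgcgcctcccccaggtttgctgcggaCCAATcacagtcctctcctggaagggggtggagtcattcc
CCAAT was found in the windows of 5 of the 22 genes that matched the promoter table, which made 16.7% of their 30 windows. It was found in 33.8% of all 32851 windows of that length.

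Of the E2 enzymes that act at the endoplasmic reticulum on misfolded proteins, 1 of 4 was higher in spermatids. Ube2j1, which is anchored in the membrane of the endoplasmic reticulum and is needed for normal sperm formation, had 2027 and 2055 in wild type spermatocytes and 8245 and 8824 in wild type spermatids (log2 difference 2.06, standard error 0.11), and 2723 and 2499 against 11537 and 11230 in the knockout (2.13). The other 3 were lower. Ube2g1 had 1017 and 1544 against 111 and 98.4 in wild type, and 1094 and 1237 against 73.3 and 117 in the knockout (log2 differences of -3.59, standard error 0.23, and -3.65). No spermatid array of Ube2g1 was within reach of a spermatocyte array. Ube2g2 had 761 ± 22.2 and 340 ± 39.1 in wild type (-1.17), and Ube2j2 had 4118 ± 197 and 3104 ± 120 (-0.41). With the mean over probe sets, Ube2g2 was called higher in wild type spermatids (0.66) and the wild type call of Ube2j1 was lost (0.21). The log2 difference of Ube2j2 kept its sign, at -0.04 at its smallest, but it was not called with cyclic loess, with equal expressed medians, without the first wild type spermatocyte array or without the second wild type spermatid array. Syvn1, a ligase of the same pathway, was also lower in spermatids (1518 and 1085 against 137 and 160 in wild type, log2 difference -3.11).

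The Ube2j1 promoter is shown for its repeats of TGACG, the core of the cAMP response element that CREB and CREM proteins bind, since CREM drives many spermatid genes. The capitals mark TGACG on either strand, 4 times in the 250 bases of chr4:33031130-33031379 on the plus strand.
Ube2j1: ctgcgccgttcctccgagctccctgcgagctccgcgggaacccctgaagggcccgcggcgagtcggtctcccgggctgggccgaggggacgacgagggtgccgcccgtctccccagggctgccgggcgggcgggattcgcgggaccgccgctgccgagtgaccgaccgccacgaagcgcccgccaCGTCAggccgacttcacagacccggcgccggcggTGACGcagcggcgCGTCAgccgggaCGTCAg
TGACG was present in the windows of 7 of the 22 genes, which made 23.3% of their 30 windows, against 17.8% of all windows. These letters are a description of the sequence, and binding was not measured.

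UBE2N builds chains linked through lysine 63, a signal in DNA repair, with a catalytically inactive variant as its partner, UBE2V1 or UBE2V2. Ube2n was higher in wild type spermatids (4366 ± 79.5 against 2735 ± 338, log2 difference 0.68), Ube2v2 was higher (1749 ± 46.5 against 580 ± 106, 1.60) and Ube2v1 was lower (843 ± 6.37 against 1951 ± 217, -1.21). The same 3 directions were called in the knockout (0.57, 1.43 and -1.35). Ube2n and Ube2v2 also had probe sets called the other way in both genotypes. With the mean over probe sets, Ube2n was called lower in wild type spermatids (-0.59) and the wild type call of Ube2v2 was lost (0.18). Rnf8, a ligase that works with UBE2N at DNA breaks and on the XY body, was lower in spermatids, at 1006 and 1117 in wild type spermatocytes and 125 and 131 in wild type spermatids.

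In the NEDD8 pathway, the measured E2 was higher in spermatids and the other measured genes were lower. Ube2f, which carries NEDD8 to cullins together with RNF7, was higher in spermatids (3037 ± 61.6 against 1184 ± 109 in wild type, log2 difference 1.36, and 3013 ± 169 against 1304 ± 74.5 in the knockout, 1.21). Uba3 and Nae1, the subunits of the activating enzyme, were lower, Nae1 at 5426 and 6303 in wild type spermatocytes and 984 and 909 in wild type spermatids (-2.63). Nedd8 itself was lower (4074 and 4419 against 1802 and 1832, -1.22) and so was Rnf7 (4254 and 4600 against 3184 and 3119, -0.49). Of 4 further Ube2f probe sets at a mean of 100 or more in a group, 3 were called higher in wild type spermatids, with log2 differences of 1.45, 1.44 and 1.59, and 1 was not called (0.24). The probes of the one used can match other transcripts. Ube2l6, which carries ISG15 and is induced by interferon, was under 100 on all 8 arrays, between 12.7 and 16.9.

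Apart from Ube2z, the remaining E2 enzymes differed by less than 2-fold between the cell types in wild type. Ube2h, Ube2o and Ube2q1 were not called (log2 differences of 0.06, -0.07 and 0.17). With cyclic loess and with equal expressed medians Ube2h and Ube2q1 were called higher (up to 0.49 and 0.54), and Ube2o reached 0.34 without a call. Ube2q1 was called higher with the same settings in the knockout (up to 0.62). Ube2q2 was higher by 0.38 on the log2 scale (adjusted p = 0.0276), a call that was lost with the compared groups fitted alone, without either wild type spermatocyte array and without the first wild type spermatid array (adjusted p = 0.193 at the highest). In the knockout its difference was -0.21 and not called, and it was called higher with cyclic loess and equal expressed medians (up to 0.46). Ube2w, which ubiquitylates the amino terminus of proteins, was higher by 0.96 (1748 ± 115 against 897 ± 26.8). With the mean over its probe sets Ube2w was called lower (-0.59). Ube2h and Ube2o were lower in spermatids of the knockout (-0.65 and -0.61), differences that turned to 0.04 and 0.07 with cyclic loess and were not called with it, with equal expressed medians or with quantile normalization.

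No gene of the 29 was called in knockout spermatocytes, against 2.73% of all genes (2.22% higher and 0.511% lower) and 4.41% of expressed genes. At an unadjusted p under 0.05 there were 3, Ube2j1 (log2 difference 0.35, adjusted p = 0.207), Ube2w (0.27, adjusted p = 0.417) and Ube2e2 (-0.50, adjusted p = 0.365). The share of all genes at that unadjusted level was not counted. With a spread that depends on signal 1 was called, Ube2j1 (adjusted p = 0.0211), against 2.12% of all probe sets. The median log2 difference was 0.04, with 18 above and 11 below 0, compared with a median of 0.00 over all genes and 0.03 over expressed genes. The knockout arrays lay above both wild type arrays for 9 genes and below both for 6, and the shares of all genes that did so were not counted. On the probe sets used, the highest upper bound of the 95% intervals was 1.52-fold, for Ube2j1, and the median upper bound was 1.26-fold. Each interval holds for 1 gene at a time, so these bounds do not limit all 29 genes together. They do not cover other probe sets of the same genes. Of 13 autosomal round spermatid markers 10 were higher in these knockout spermatocytes, with a summed signal of 24324 to 33907 against 5628 to 9101 in wild type. Ube2j1 was 4.18-fold higher in wild type spermatids than in wild type spermatocytes, and the part of these spermatid RNAs in its difference was not tested.

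**Figure D2:**
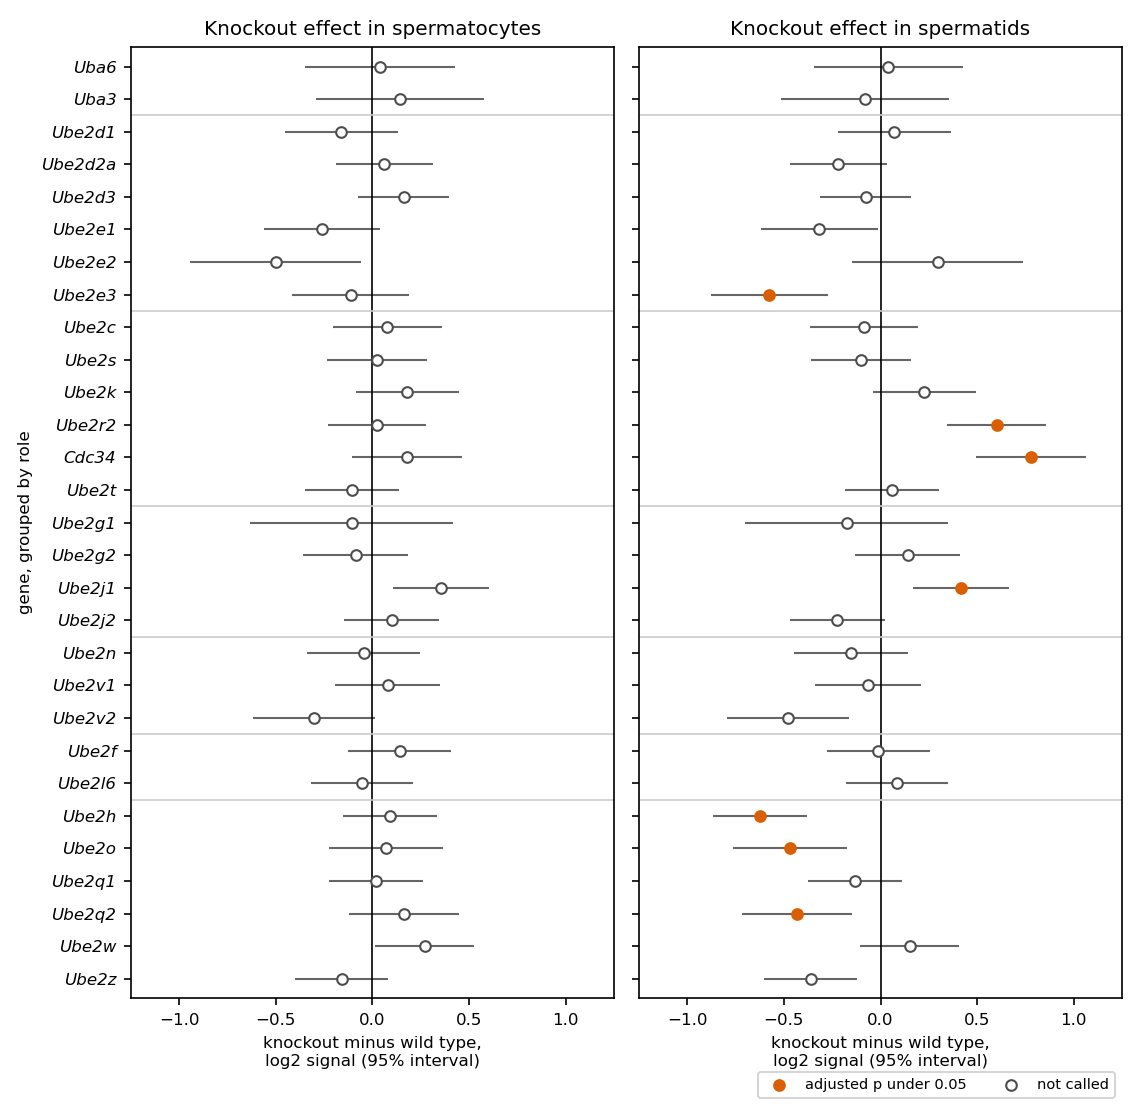
Knockout minus wild type difference in log2 signal (x axis) with its 95% interval for the 29 genes (y axis, grouped by role), in spermatocytes (left) and spermatids (right), from 2 arrays a group. Filled points were called. None is filled in spermatocytes, and in spermatids 3 lie above and 4 below 0.

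In knockout spermatids 7 of the 29 genes were called, 3 higher and 4 lower (19.8% of all genes were called, 6.93% higher and 12.9% lower, and 28.4% of expressed genes), and none differed by 2-fold or more, as 2.80% of all genes did. The median log2 difference was -0.08, against 0.01 over all genes and -0.14 over expressed genes. At an unadjusted p under 0.05 there were 10, and the share of all genes at that level was not counted. The knockout arrays lay above both wild type arrays for 5 genes and below both for 13, and the shares of all genes that did so were not counted. This comparison shares its wild type spermatid arrays with the stage difference in wild type and its knockout arrays with that in the knockout.

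The UBE2R genes Cdc34 and Ube2r2 were both higher. Cdc34 had 4517 and 5153 in wild type spermatids and 8409 and 8128 in knockout spermatids. Both knockout arrays were well above the wild type ones, a 1.71-fold difference (log2 difference 0.78, 95% interval 0.49 to 1.06, adjusted p = 0.0038), and it was called under all 16 alternative settings. In spermatocytes Cdc34 had 2196 and 1848 in wild type and 2337 and 2222 in the knockout (0.18, interval -0.11 to 0.46). Ube2r2 had 293 and 322 in wild type spermatids and 448 and 484 in knockout spermatids, again without overlap (1.52-fold, log2 difference 0.60, interval 0.35 to 0.86, adjusted p = 0.00759). In spermatocytes it had 400 and 375 in wild type and 392 and 395 in the knockout. Without the first wild type spermatid array the adjusted p of Ube2r2 was 0.0598. Ube2g1, another E2 of cullin-RING ligases, was not called (log2 difference -0.18, interval -0.70 to 0.35).

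Ube2j1 was the third gene that was higher, at 8245 and 8824 in wild type and 11537 and 11230 in knockout spermatids, a 1.33-fold difference (log2 difference 0.42, interval 0.17 to 0.66, adjusted p = 0.0333). Its groups did not overlap in either cell type, and the knockout differences in spermatocytes and spermatids were 0.35 and 0.42 on the log2 scale (0.06 between them, interval -0.29 to 0.41). The call in spermatids held in 8 of 16 alternative settings and was lost with the spermatid groups fitted alone, with the mean over probe sets (0.11) and when any 1 of the 6 arrays of knockout spermatocytes, knockout spermatids or wild type spermatids was left out.

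**Figure D3:**
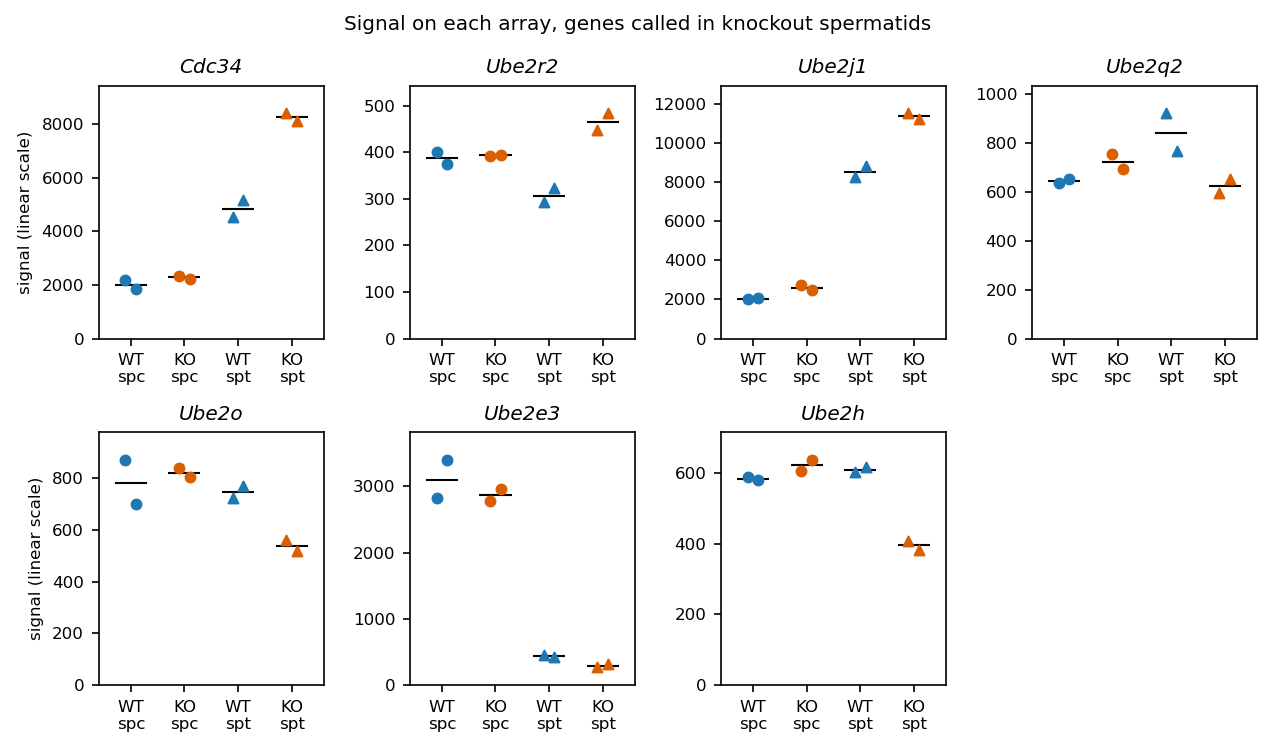
Signal on the linear scale (y axis, from 0) on each array for the 7 genes called in knockout spermatids, 1 panel a gene. WT is wild type, KO is Hr6b knockout, spc is spermatocytes (circles) and spt is spermatids (triangles), blue is wild type and orange is knockout, and the short lines are means of the log2 values of 2 arrays. Cdc34, Ube2r2 and Ube2j1 are higher and the other 4 genes lower in knockout than in wild type spermatids.

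Of the 4 genes that were lower, Ube2h had the largest difference. UBE2H is the E2 of the CTLH ligase, a large complex with the subunits MAEA and RMND5A that is best known from red cell maturation. Its signal was 603 and 616 in wild type spermatids and 408 and 382 in knockout spermatids. The knockout arrays stood apart from the other 6, which lay between 580 and 637, and the log2 difference was -0.63 (interval -0.87 to -0.38, adjusted p = 0.00487). The 3 other probe sets of Ube2h gave -0.75 and -0.53 (adjusted p = 0.00208 and 0.0163), and -0.51 without a call (adjusted p = 0.131). Rmnd5a was lower too, at 266 and 247 in wild type and 159 and 173 in knockout spermatids (-0.63, adjusted p = 0.00703), and Maea had 866 and 839 against 698 and 640 (-0.35, adjusted p = 0.0903). The adjusted p of Ube2h was 0.0593 at its highest, and the call was lost with cyclic loess and quantile normalization.

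The Ube2h promoter is shown as the only window of these genes with a complete cAMP response element, TGACGTCA, in capitals here. It lies at chr6:30304540-30304789 on the minus strand, and a further Ube2h window holds no match.
Ube2h: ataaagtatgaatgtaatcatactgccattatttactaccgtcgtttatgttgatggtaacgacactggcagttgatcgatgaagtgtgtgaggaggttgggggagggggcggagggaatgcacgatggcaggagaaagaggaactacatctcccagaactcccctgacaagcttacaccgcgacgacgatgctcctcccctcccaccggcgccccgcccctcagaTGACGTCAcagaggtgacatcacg
The element was present in 1.55% of all windows of that length. Its half-sites on both strands fall within the element.

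Ube2e3, Ube2o and Ube2q2 were lower as well. Ube2e3 had 458 and 418 in wild type and 273 and 316 in knockout spermatids (log2 difference -0.58, adjusted p = 0.0194). Ube2o, a large enzyme with E2 and E3 activity that marks unassembled ribosomal proteins, had 723 and 769 against 560 and 517 (-0.47, adjusted p = 0.0401). Ube2q2 had 923 and 768 against 595 and 654 (-0.43, adjusted p = 0.0493). The knockout arrays were below both wild type arrays for each, but the calls held in 9, 7 and 3 of 16 alternative settings. Ube2v2 (log2 difference -0.48, adjusted p = 0.0501) and Ube2z (-0.36, adjusted p = 0.0502) lay just outside the threshold.

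The split of these calls by direction moved with scaling. With cyclic loess 5 genes were called higher and 0 lower, with equal expressed medians 5 and 1, and with quantile normalization 3 and 0. Cdc34, Ube2r2 and Ube2j1 were higher in all 3, and Ube2k and Ube2w were called higher in addition with the former 2. None of the 7 changed sign. In knockout spermatids 3 of 13 Sertoli cell markers were higher (Inha, Cldn11 and Amhr2), with a summed signal of 1374 to 1445 against 947 to 1071 in wild type. Of these markers 9 were under a mean of 100 in wild type and 8 in knockout spermatids. Round spermatid markers were higher for 3 of 13 (summed signal 199864 to 205463 against 156189 to 158756), and 1 of 13 spermatocyte markers was lower (37554 to 38264 against 42746 to 42873). Their part in the differences of the 7 genes was not tested.

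When the knockout differences in the 2 cell types were compared with each other, 1 of the 29 genes was called, against 6.72% of all genes and 9.36% of expressed genes. This was Ube2h, with a difference of 0.09 in spermatocytes (588 and 580 in wild type, 606 and 637 in the knockout) and -0.63 in spermatids, and -0.72 between them (interval -1.06 to -0.37, adjusted p = 0.034). Ube2r2 and Cdc34 pointed the other way, by 0.58 and 0.60, and were not called (adjusted p = 0.0721 and 0.0893). These calls depended on scaling: with cyclic loess and with equal expressed medians Ube2r2 and Cdc34 were called and Ube2h was not (-0.45 and -0.48, adjusted p = 0.168 with cyclic loess). The call of Ube2h was also lost with quantile normalization (adjusted p = 0.149) and without any single array other than the first wild type spermatocyte array.

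Several genes gave a different answer on another probe set. Of 16 genes with at least 2 probe sets that had a mean signal of 100 or more in a group, 7 had probe sets called in opposite directions between the cell types in wild type, and the same 7 did in the knockout: Ube2d2a, Ube2d3, Ube2g2, Ube2j1, Ube2n, Ube2v2 and Ube2w. Of all probe sets, 53.3% were called in wild type and 63.0% in the knockout. The share of all genes with probe sets called in both directions was not counted, so the 7 cannot be set against a background. The second Ube2j1 probe set had 1266 and 1270 in wild type spermatocytes and 427 and 387 in wild type spermatids, a log2 difference of -1.64 against 2.06 on the one used. For Ube2n, Ube2v2 and Ube2w the dimmer probe sets gave -1.86, -1.80 and -3.05. With the mean over the probe sets of a gene, Ube2d3, Ube2n and Ube2w were called lower (-1.57, -0.59 and -0.59) and Ube2g2 higher (0.66) in wild type spermatids, and Ube2t gave -1.66. The wild type calls of Ube2k, Ube2j1 (0.21, adjusted p = 0.0555) and Ube2v2 (0.18, adjusted p = 0.172) were lost with this mean, and in the knockout so were those of Ube2k and Ube2v2 (0.22 for Ube2v2, adjusted p = 0.0891). The arrays read the 3′ ends of transcripts, where transcripts of 1 gene can end at different sites in these cells, and which ends each probe set reads was not tested.

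**Figure D4:**
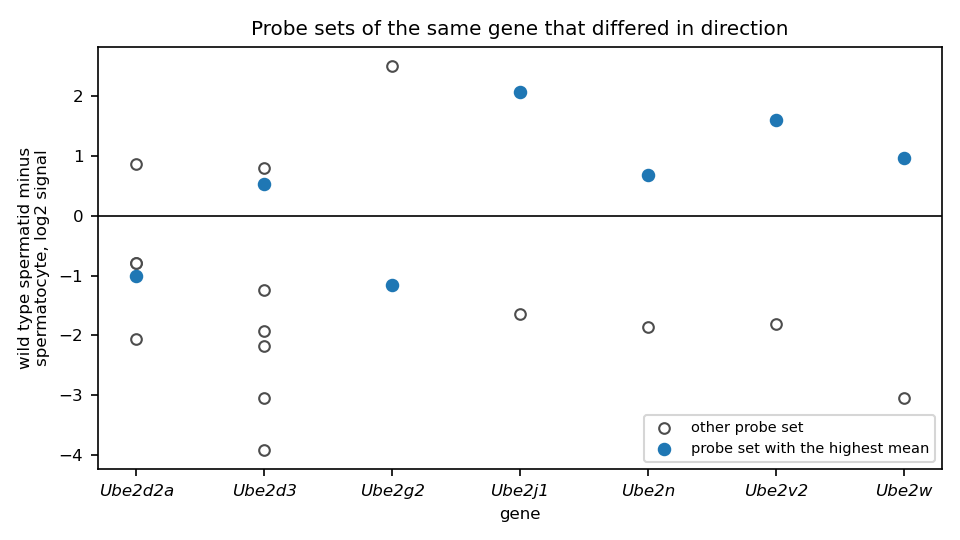
Wild type spermatid minus spermatocyte difference in log2 signal (y axis) of each probe set with a mean signal of 100 or more in a group, for the 7 genes (x axis) whose probe sets were called in both directions. Filled points are the probe sets used, open points the others. For Ube2j1, Ube2n, Ube2v2 and Ube2w the probe set used lies above 0 and the other below.

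For the knockout differences, no gene had probe sets called in opposite directions in either cell type (1.59% of all probe sets were called in spermatocytes and 14.5% in spermatids). The second Ube2g2 probe set, singled out after its values were seen, had 83.8 and 149 in wild type spermatocytes, 199 and 159 in knockout spermatocytes, 627 and 635 in wild type spermatids and 1463 and 1678 in knockout spermatids. It was higher in knockout than in wild type spermatids (2.48-fold, log2 difference 1.31, interval 0.80 to 1.83, adjusted p = 0.00531), whereas the one used was not called (0.14, interval -0.13 to 0.41). In the other direction, probe sets of Ube2d3 (-0.63, adjusted p = 0.00726) and Ube2d2a (-0.52, adjusted p = 0.0321) were lower in knockout spermatids, and those used were not called (-0.08 and -0.22). With the mean over probe sets, Ube2g2 was called higher (0.73, adjusted p = 0.00827) and Ube2n lower (-0.32, adjusted p = 0.0478) in knockout spermatids. The calls of Ube2e3 and Ube2j1 in knockout spermatids were lost with this mean.

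No measured gene of the 3 further pathway lists was called higher in knockout cells. Of 16 further E1 and E2 genes measured of 19 listed, 7 were higher and 5 lower in wild type spermatids than in spermatocytes (63.2% of all genes and 83.1% of expressed genes were called). In knockout spermatocytes 1 was lower and 0 higher, and in knockout spermatids 4 were lower (Sae1, Atg3, Ube2d2b and Birc6) and 0 higher. Of all genes 2.73% were called in spermatocytes and 19.8% in spermatids (4.41% and 28.4% of expressed genes), so that the count in spermatids was near the background. The gene lower in spermatocytes was Uba1y, the Y-linked E1 of the male germ line. It had 110 and 94.8 in wild type and 65.2 and 53.6 in knockout spermatocytes, and 931 and 946 against 889 and 1051 in spermatids (log2 differences of -0.79, adjusted p = 0.0246, and 0.04, interval -0.28 to 0.36). A second Uba1y probe set, under 100 in spermatocytes (66.8 and 74.5 in wild type, 53.8 and 57.3 in the knockout), was not called there (-0.35, adjusted p = 0.319). Of 24 ligases measured of 26 listed, 6 were higher and 14 lower in wild type spermatids. The share called in either direction was near that of expressed genes. By direction, 33.7% of all genes were higher and 29.4% lower. The median log2 difference of the ligases was -0.90, against 0.15 over all genes and -0.17 over expressed genes. The 1 ligase called in knockout spermatocytes and the 4 in knockout spermatids were near the shares of all genes. The X-linked Huwe1 was lower in knockout spermatocytes (73.3 and 74.5 in wild type, 43.4 and 39.6 in the knockout, -0.83, adjusted p = 0.00674), and Ube3a, Chfr, Cbl and Rmnd5a were lower in knockout spermatids. Cbl had the largest of these differences, 1122 and 1107 in wild type and 413 and 464 in knockout spermatids (-1.35, adjusted p = 0.000248). Of the ubiquitin-like proteins 3 of 10 listed were measured, and Ufm1 was lower in knockout spermatids (448 and 454 against 235 and 295, -0.77, adjusted p = 0.00402).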

How the data were processed

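Labelled cRNA made from the RNA of late spermatocytes and round spermatids was hybridized to Affymetrix mouse expression arrays. The deposited values are on the log2 scale, and per the labels and methods the authors made them with RMA, which corrects background, normalizes and combines the probes of a probe set. They were used without further normalization, and signal is their value on the linear scale. Of 45101 probe sets, 64 controls were left out and 45037 tested. Per the given platform annotation 34945 were annotated to 1 gene, 932 to several and 9160 to none. A mean for each of the 4 groups was fitted with limma 3.58.1 in R 4.3.3 (lmFit and eBayes, 4 residual and 5.85 prior degrees of freedom), with Benjamini-Hochberg adjustment over all 45037 probe sets and a threshold of 0.05, and the fit was tested on simulated data. All measured genes are named, with values on each array for those called in a knockout difference and for the 8 with the largest called stage difference in wild type. Alternatives were cyclic loess, quantile normalization, equal medians of expressed probe sets, a signal filter, a trended spread, fits of the compared groups alone, a replicate block, the mean over probe sets, an adjusted p under 0.01 and leaving out each array. The genes, the lists of pathway and marker genes and the tests were chosen with earlier results of these data known. The number of arrays limits the precision. Promoter sequences are from RefSeq (GRCm38.p6).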

Additional observations from a re-analysis of the deposited data

Results flagged for a closer look

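Ube2h was called as different between the cell types in its response to the loss of HR6B, a call that depended on scaling. Its knockout difference in spermatids minus that in spermatocytes was -0.72 on the log2 scale (standard error 0.15, adjusted p = 0.034 from limma's test of this difference, 2 arrays a group). The Ube2h signal was 584 ± 5.68 and 622 ± 22.2 in wild type and knockout spermatocytes, and 609 ± 9.35 and 395 ± 18.2 in wild type and knockout spermatids. A second of the 4 Ube2h probe sets gave -0.82 (adjusted p = 0.0208), and the other ones are not given here. On the probe set used, the call was lost with cyclic loess, with equal expressed medians and with quantile normalization. It was also lost without any single array other than the first wild type spermatocyte array.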

How the results depend on the processing

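In wild type 21 to 26 of the 29 genes were called between the cell types over all alternatives, and 22 to 26 in the knockout, with the mean over probe sets giving 5 higher and 16 lower in wild type. In knockout spermatocytes 0 were called under every alternative except the trended spread, with 1. In knockout spermatids the count of 7 became 3 with quantile normalization and 3 at an adjusted p under 0.01. Leaving out 1 array gave 2 to 7, with 2 without the first and 3 without the second wild type spermatid array, 3 and 4 without a knockout spermatid array, and 4 without either knockout spermatocyte array. When the knockout differences of the cell types were compared, the count of 1 became 2 with cyclic loess, 3 with equal expressed medians, 2 with the signal filter, 2 with the trended spread, 3 with the mean over probe sets and 0 at an adjusted p under 0.01. It was 0 to 1 when 1 array was left out, and 1 only without the first wild type spermatocyte array. The cause of these changes was not tested, other than that fewer arrays were fitted. No named gene called between the cell types as one of the 8 largest, and none of the 7 called in knockout spermatids, changed sign.

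Whether arrays with the same replicate number belong together was not given. The correlations of replicate differences between groups ran from -0.23 to 0.22 over 17597 probe sets. With 1 such difference a group, they cannot decide this. With the replicate block the counts were 24, 25, 0, 7 and 1 for the stage difference in wild type and in the knockout, the knockout effect in spermatocytes and in spermatids, and their comparison.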
